A study of Mus musculus with 18 samples.

Results

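The genes described here are the nuclear genes of mitochondrial complex I, the NADH:ubiquinone oxidoreductase, in mouse heart. They were chosen by name: every gene whose symbol begins with Ndufa, Ndufb, Ndufc, Ndufs or Ndufv in both deposited count tables, without pseudogene entries. The rule found 50 of the 35586 genes that the tables share. Of these, 37 encode subunits of the complex, 8 are assembly factors of the Ndufaf series, 4 are not subunits or are further copies (Ndufa4, Ndufa4l2, Ndufb4c and Ndufs6b), and Ndufa11b was not placed. Ndufa11b had counts in 1 library only and was not tested, so 49 members were among the 14623 genes tested.

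Poly(A)+ RNA came from heart tissue of wild-type male C57BL/6 mice, and every mouse received isoproterenol (ISO), a beta-adrenergic agonist that stresses the heart, at 2.5 mg/kg/day by subcutaneous injection for 21 days. The ISO group received water by gavage. Each of the other groups was gavaged over the same days with 50 mg/kg/day of polystyrene (PS), as 100 nm particles in one and as 1 µm particles in the other, with 6 mice in each of the 3 groups. No group went without ISO, so no value can be set against an unstressed heart, and in bulk tissue fewer cells of a type and less RNA per cell cannot be told apart. The age of the mice was not given, and the labels give each library as 1 numbered mouse. The labels name 2 library providers as batches: batch 1 held 3 ISO, 5 100 nm and 4 1 µm libraries, and batch 2 held 3, 1 and 2.

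Complex I passes electrons from NADH to ubiquinone and pumps protons across the inner mitochondrial membrane, and the beating heart depends on it for most of its ATP. Its peripheral arm holds the N module, which oxidises NADH, and the Q module, which reduces ubiquinone. Its membrane arm is built from the ND1, ND2, ND4 and ND5 modules, named after proteins that mitochondrial DNA encodes. Core subunits carry the cofactors and the catalysis, supernumerary subunits surround and stabilise them, and assembly factors help to build the complex without staying in it. Nuclear respiratory factors, among them NRF1 and the GA-binding protein GABP, activate many of these genes.

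Promoter windows of 300 bases (250 before and 50 after the transcription start, RefSeq, GRCm38.p6) were given for 41 of the 50 members, in 43 promoters. The upstream 250 bases of the assembly factor genes Ndufaf4 and Ndufaf1 are shown because both genes were lower with PS and each window holds the letters of a nuclear respiratory factor motif, marked in capitals. The capitals are the NRF1 motif in Ndufaf4 (chr4:24897833-24898082, plus strand), beginning 113 bases before the start, and the GABP core in Ndufaf1 (chr2:119662835-119663084, minus strand), beginning 18 bases before it.
Ndufaf4: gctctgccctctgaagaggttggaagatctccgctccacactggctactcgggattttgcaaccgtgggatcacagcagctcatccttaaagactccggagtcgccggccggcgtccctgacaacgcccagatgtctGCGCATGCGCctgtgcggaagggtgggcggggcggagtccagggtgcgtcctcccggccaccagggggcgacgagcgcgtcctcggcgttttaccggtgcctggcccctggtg
Ndufaf1: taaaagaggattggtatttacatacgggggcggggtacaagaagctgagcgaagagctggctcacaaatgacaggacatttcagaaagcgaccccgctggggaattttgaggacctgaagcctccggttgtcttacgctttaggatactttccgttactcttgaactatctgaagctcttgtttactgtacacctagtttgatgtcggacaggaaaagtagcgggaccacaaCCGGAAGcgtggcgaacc

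Both strands of each window were searched for the NRF1 motif (the letters in capitals in Ndufaf4), CCGGAAG (GABP), AAGATGGC (YY1) and TCAAGGTCA (estrogen-related receptors). No searched motif overlaps another in the 2 sequences shown. The NRF1 letters were in 3 of 43 members' promoters (6.98%) against 0.971% of all 32851 promoters of the table. The GABP letters were in 6 (14%) against 8.86%, the YY1 letters in 8 (18.6%) against 2.75%, and the receptor letters in 0 against 0.423%. Among the 11 promoters of members that fell with PS at a single size, 1 held the NRF1 letters, 1 the GABP letters and 2 the YY1 letters. Among the 32 promoters of tested members that did not, the counts were 2, 5 and 6. These matches describe the letters in the window and say nothing of binding.

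Library totals ran from 14032257 to 22600570 counts. Complex I genes held 0.733% to 3.31% of a library's counts in ISO and 1.03% to 1.66% in PS. The ISO libraries of batch 1 stood apart from each other. ISO replicate 2 had 13152 genes detected, against 16562 to 18756 in all others, and ISO replicate 1 gave 42.4% of its counts to mitochondrially encoded protein genes, against 12.3% to 30.9%. The 14 cardiac muscle cell markers were abundant in every library, with a summed level of 46561 to 146024 CPM (counts scaled to the library's size).

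**Figure D1:**
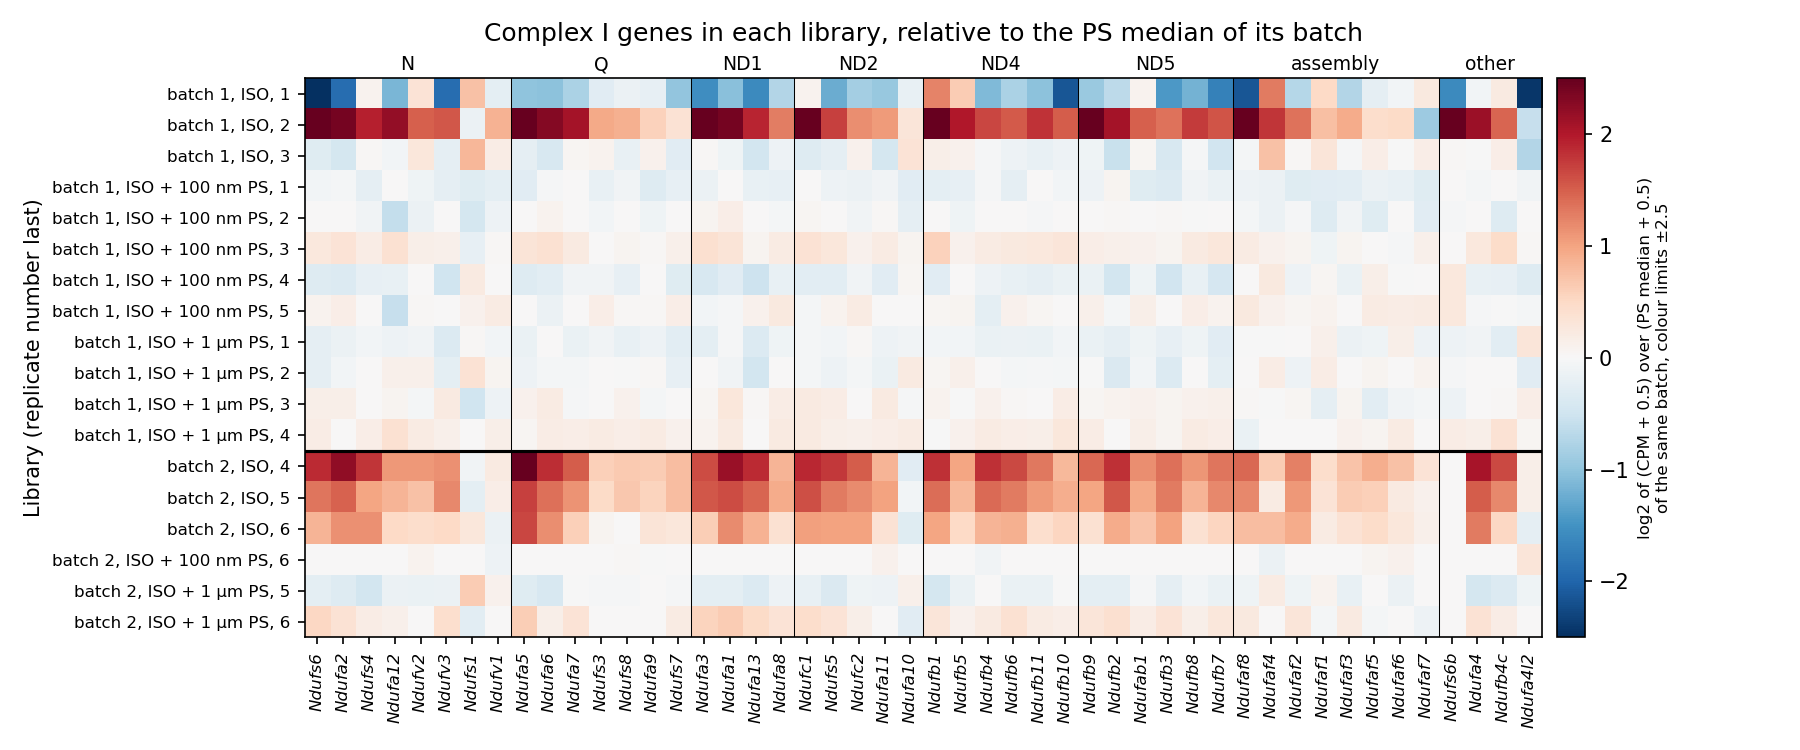
Level of 48 complex I genes (columns, by structural module) in each of 18 libraries (rows), as log2 of CPM + 0.5 over the PS median + 0.5 of the same batch, with colours limited to ±2.5. In batch 1, ISO replicate 1 is mostly blue (lower than PS) and ISO replicate 2 mostly red (higher than PS), while the 3 ISO libraries of batch 2 are red for nearly all genes.

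The members lay differently in the 3 ISO libraries of batch 1. In that batch, ISO replicate 2 was above the range of the 9 PS libraries for 46 of 49 members, ISO replicate 1 was below it for 31, and ISO replicate 3 was within it for 37. The median member stood at 1.55 (log2) above the batch's PS median in ISO replicate 2, at -0.80 in ISO replicate 1 and at -0.03 in ISO replicate 3. The PS libraries of batch 1 lay close together, with median members between -0.18 and 0.15. In batch 2 the median member was at 1.23, 0.99 and 0.53 in ISO replicates 4, 5 and 6 and between -0.14 and 0.20 in the PS libraries.

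All 3 PS libraries of batch 2 were below all 3 ISO libraries for 42 of 49 members, against 16.7% of all genes tested, and above them for 0. In batch 1 the 9 PS libraries were below all 3 ISO libraries for 3 members, Ndufaf1, Ndufaf4 and Ndufv2, against 5.69% of all genes. They were above all 3 for Ndufa4l2, against 7.74% of all genes. The same 3 members were lower without overlap in both batches, as were 1.27% of all genes. A term for a different PS effect in the batches passed for 0 of 49 members by edgeR's quasi-likelihood test (2 at an unadjusted p under 0.05), and for 48 of all genes.

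The first question the design puts is what PS adds to the ISO-stressed heart. With 100 nm PS, 11 of 49 complex I genes fell and 0 rose (edgeR's quasi-likelihood test with batch as a term, Benjamini-Hochberg adjusted p under 0.05), where 5.69% of all genes fell and 3.88% rose. With 1 µm PS, 10 fell and 0 rose, where 4.5% of all genes fell and 2.89% rose. The median log2 fold change over the 49 members was -0.81 at 100 nm and -0.80 at 1 µm, against -0.02 and 0.00 over all genes. Both comparisons use the same 6 ISO libraries, so they are not independent of each other. When the average of the 2 PS groups was set against ISO, 27 of 49 fell and 0 rose, where 10.9% of all genes fell and 6.8% rose. That count was 9 without ISO replicate 2, where 12.5% of all genes fell. Calls given below are at a single size unless the average is named. DESeq2 called 26 and 27 members lower at the single sizes, where it called 10.3% and 9.36% of all genes lower.

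The counts changed with the libraries included. Without ISO replicate 2 the median was -0.28 at 100 nm and -0.32 at 1 µm, and 5 and 6 members fell, where 9.04% and 8.56% of all genes fell. Without ISO replicate 1 the medians were -1.02 and -0.97 and 38 and 35 members fell, where 8.81% and 7.96% of all genes fell, and without ISO replicate 3 the counts were 25 and 26, where 8.78% and 8.62% of all genes fell. With ISO replicates 1 and 2 both left out, the medians were -0.62 and -0.61 and 4 and 12 members fell, where 2.66% and 4.37% of all genes fell. In batch 1 alone the medians were -0.64 and -0.57 with 4 and 2 members lower (4.51% and 2.27% of all genes). In batch 2 alone the medians were -0.97 and -0.92 with 0 lower at either size (0.0139% and 0.0348% of all genes). At 100 nm the count was 3, 4 and 2 without 100 nm PS replicates 1, 2 and 6, where 2.04%, 2.07% and 0.789% of all genes fell. At 1 µm it was 3 without ISO replicate 4 (1.76% of all genes). Without 1 µm PS replicates 1 to 6 in turn it was 2, 6, 2, 6, 5 and 6, where 1.16%, 2.13%, 1.31%, 1.63%, 3.41% and 2.34% of all genes fell.

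**Figure D2:**
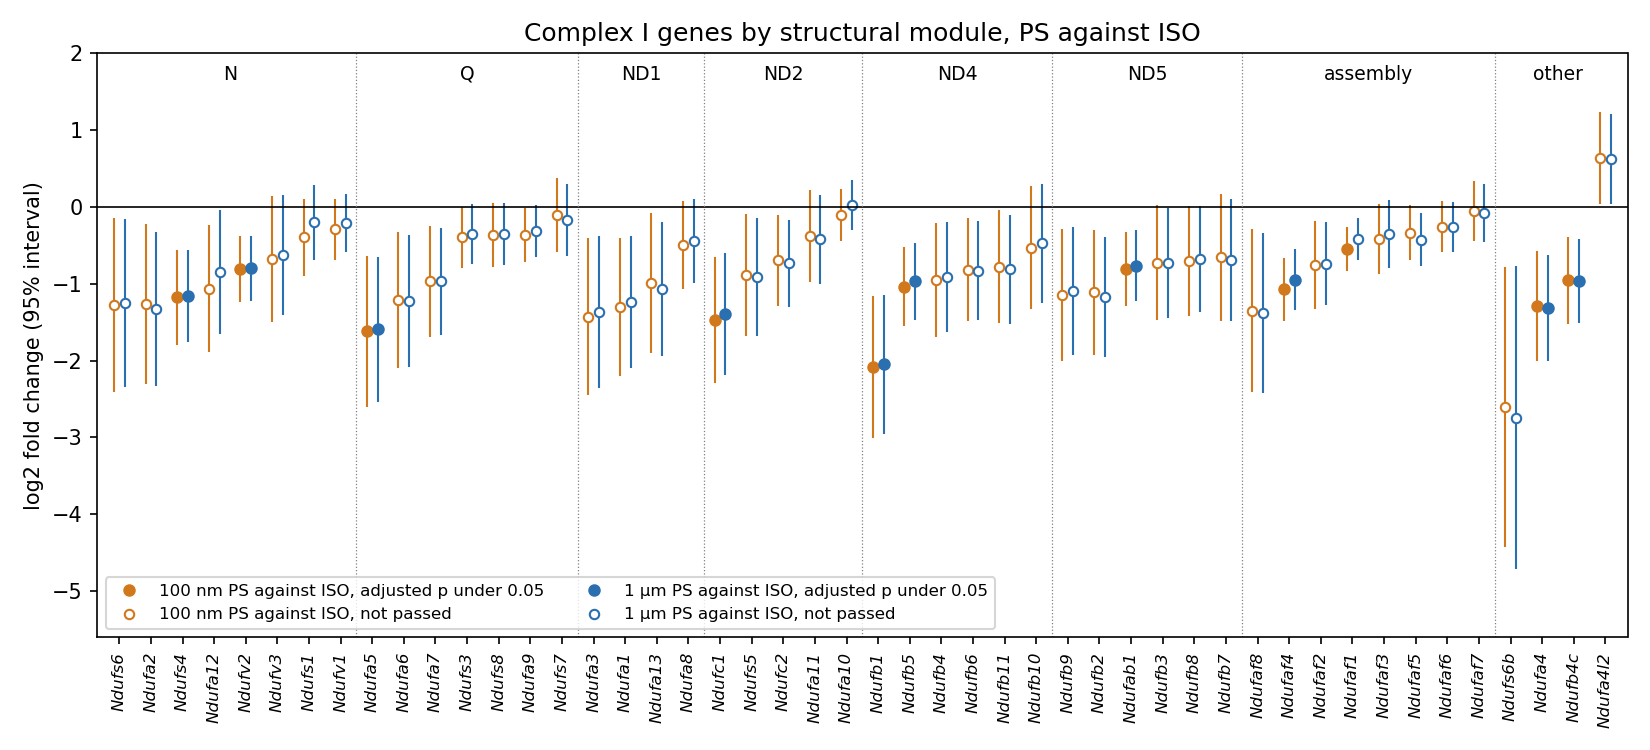
Log2 fold change against ISO (y axis, points) with 95% intervals (bars) of 48 complex I genes, grouped by structural module, for 100 nm (orange) and 1 µm PS (blue). Filled points have an adjusted p under 0.05, 11 at 100 nm and 10 at 1 µm, all below 0, and Ndufa4l2 is the member farthest above 0.

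Among the core subunits 1 of 7 fell at each size, with a median log2 fold change of -0.37 at 100 nm and -0.21 at 1 µm. Among the supernumerary subunits 6 of 30 fell at each size, with medians of -0.96 and -0.91. Leaving out ISO replicate 2 gave core medians of -0.17 and -0.16 (1 lower at each size) and supernumerary medians of -0.33 and -0.42 (2 and 3 lower). Over all genes 5.69% and 4.5% fell with all libraries, and 9.04% and 8.56% without ISO replicate 2. The difference between the 2 kinds of subunit was not tested. At 100 nm the module medians were -0.94 for N (2 of 8 lower), -0.38 for Q (1 of 8), -1.15 for ND1 (0 of 4), -0.70 for ND2 (1 of 5), -0.89 for ND4 (2 of 6) and -0.77 for ND5 (1 of 6). Without ISO replicate 2 they were -0.32, -0.23, -0.30, -0.38, -0.46 and -0.26 in the same order. In the average of both sizes 5 of 8 N, 3 of 8 Q, 3 of 4 ND1, 2 of 5 ND2, 4 of 6 ND4 and 3 of 6 ND5 subunits fell, and without ISO replicate 2 these counts were 2, 0, 0, 0, 2 and 1. Over all genes 10.9% fell in the average, and 12.5% without ISO replicate 2.

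In the N module, Ndufv2 and Ndufs4 fell at each size. Ndufv2, a core subunit that carries an iron-sulfur cluster near the NADH site, was at 583, 1296 and 555 CPM in ISO replicates 1 to 3 and at 417 to 525.9 CPM (median 459) in the 9 PS libraries of batch 1. Its batch 2 levels were 856, 669 and 548 CPM in ISO and 427, 358 and 402 CPM in PS. Every PS library lay below every ISO library of its own batch. The log2 fold change was -0.81 (SE 0.20, edgeR adjusted p = 0.0225) at 100 nm and -0.80 (SE 0.20, adjusted p = 0.0257) at 1 µm, and -0.55 and -0.56 without ISO replicate 2 (adjusted p = 0.0361 and 0.029).

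Ndufs4, a supernumerary subunit needed to attach the N module, was at 188, 674 and 179 CPM in ISO of batch 1 and at 150.3 to 199.7 CPM (median 176) in PS there. In batch 2 it was at 447, 256 and 286 CPM in ISO and at 129, 93.5 and 146 CPM in PS. The groups overlapped in batch 1, where ISO replicate 2 alone stood above the PS range, and did not overlap in batch 2. Its log2 difference from ISO was -1.18 (SE 0.29, edgeR adjusted p = 0.0214) at 100 nm and -1.16 (SE 0.28, adjusted p = 0.024) at 1 µm. Without ISO replicate 2 it was -0.77 (adjusted p = 0.0546) and -0.78 (adjusted p = 0.0433).

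The other N module genes did not pass at a single size, and Ndufa2, Ndufa12 and Ndufs6 passed in the average of both. Ndufs1, the largest core subunit and an iron-sulfur protein, was at 601, 328 and 641 CPM in ISO of batch 1 and at 256 to 467 CPM in PS there. Batch 2 had it at 465.7, 419 and 607 CPM in ISO and at 498, 768 and 416 CPM in PS, so the groups overlapped in both batches. Unlike most members, Ndufs1 was lower in ISO replicate 2 than in the other ISO libraries of its batch. Against ISO, its log2 fold change was -0.40 (SE 0.23, adjusted p = 0.273) at 100 nm and -0.20 (SE 0.23, adjusted p = 0.599) at 1 µm. Ndufv1, the core subunit that binds NADH, was at -0.29 (SE 0.18, adjusted p = 0.297) at 100 nm, the smallest difference of the module, and Ndufs6, a supernumerary subunit, at -1.28 (SE 0.53, adjusted p = 0.121), the largest. Ndufs6 ran from 41.9 CPM in ISO replicate 1 to 1706 CPM in ISO replicate 2.

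In the Q module Ndufa5, a supernumerary subunit, was the single gene that fell at one size or the other, and Ndufa6 and Ndufa7 passed in the average of both. Ndufa5 was at 174, 2289.6 and 303 CPM in ISO of batch 1 and at 279.5 to 438 CPM (median 352) in PS there, so ISO lay on both sides of PS. Its batch 2 levels were 620.3, 353 and 345 CPM in ISO and 108, 86.8 and 166 CPM in PS. The log2 fold change was -1.62 (SE 0.46, edgeR adjusted p = 0.0352) at 100 nm and -1.59 (SE 0.44, adjusted p = 0.0371) at 1 µm. With ISO replicate 2 left out it was -0.73 (adjusted p = 0.273) and -0.81 (adjusted p = 0.197). The core subunits Ndufs3, Ndufs8 and Ndufs7 of this module, the latter pair being iron-sulfur proteins on the path to ubiquinone, did not pass. At 100 nm Ndufs3 was at -0.40 (SE 0.19), Ndufs8 at -0.37 (SE 0.19) and Ndufs7 at -0.11 (SE 0.23), and at 1 µm they were at -0.36, -0.35 and -0.17.

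In the membrane arm 4 subunits, from the ND2, ND4 and ND5 modules, fell at each size, and 8 more passed in the average of both. Ndufb1, a small subunit of the ND4 module, had the largest fall of the members that passed at a single size. It was at 86.6, 484 and 40.2 CPM in ISO of batch 1 and at 29.7 to 54.8 CPM (median 36.5) in PS there. In batch 2 it was at 335, 249 and 187 CPM in ISO and at 94.5, 69.5 and 116 CPM in PS. ISO replicate 3 lay within the PS range of batch 1, and all other ISO libraries lay above the PS libraries of their batch. Its log2 difference from ISO was -2.08 (SE 0.43, edgeR adjusted p = 0.0119) at 100 nm and -2.05 (SE 0.42, adjusted p = 0.0137) at 1 µm. Without ISO replicate 2 it was -1.08 (adjusted p = 0.0103) and -1.15 (adjusted p = 0.0062). With ISO replicates 1 and 2 both left out, Ndufb1 passed at 1 µm and did not pass at 100 nm.

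Ndufb5, also of the ND4 module, was at 469, 1207 and 326 CPM in ISO of batch 1 and at 262 to 328 CPM (median 303) in PS there. Batch 2 had it at 583, 512 and 415 CPM in ISO and at 293, 259.9 and 318 CPM in PS. Only ISO replicate 3 reached into the PS range of its batch. Against ISO, its log2 fold change was -1.04 (SE 0.24, edgeR adjusted p = 0.0183) at 100 nm and -0.97 (SE 0.24, adjusted p = 0.0244) at 1 µm, and -0.61 and -0.59 without ISO replicate 2 (adjusted p = 0.0194 and 0.02). Ndufb10, at the other end of the ND4 module, did not pass (-0.53 at 100 nm, SE 0.37, adjusted p = 0.361).

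Ndufc1, a subunit of the ND2 module, was at 216, 1322 and 162 CPM in ISO of batch 1 and at 168 to 259 CPM (median 203) in PS there. Its batch 2 levels were 460.0, 385 and 254 CPM in ISO and 125, 109 and 170.2 CPM in PS. In batch 1 ISO replicate 2 alone stood above the PS range and ISO replicate 3 lay below it, so ISO lay on both sides of PS. The log2 fold change was -1.47 (SE 0.38, edgeR adjusted p = 0.0261) at 100 nm and -1.39 (SE 0.37, adjusted p = 0.0321) at 1 µm, and -0.68 at both without ISO replicate 2 (adjusted p = 0.139 and 0.117). In the same module Ndufa10 was at -0.10 (SE 0.16, adjusted p = 0.691) at 100 nm and 0.02 (SE 0.15, adjusted p = 0.946) at 1 µm. In batch 2 Ndufa10 was at 688, 799.6 and 677 CPM in ISO and at 833, 910.0 and 688 CPM in PS.

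Ndufab1, of the ND5 module, is also the acyl carrier protein of mitochondrial fatty acid synthesis. It was at 245, 647 and 239 CPM in ISO of batch 1 and at 185 to 256 CPM (median 229.9) in PS there. In batch 2 it was at 757, 651 and 553 CPM in ISO and at 339, 331 and 383 CPM in PS, without overlap. Its log2 difference from ISO was -0.81 (SE 0.22, edgeR adjusted p = 0.0322) at 100 nm and -0.77 (SE 0.21, adjusted p = 0.0387) at 1 µm, and -0.50 and -0.49 without ISO replicate 2 (adjusted p = 0.0773 and 0.0708). The other ND5 subunits ran at 100 nm from -1.14 for Ndufb9 (SE 0.40, adjusted p = 0.0736) to -0.66 for Ndufb7 (SE 0.38, adjusted p = 0.266). In the ND1 module, beside the ubiquinone channel, none of the 4 nuclear subunits passed at a single size, from Ndufa3 at -1.43 (SE 0.48, adjusted p = 0.0632) to Ndufa8 at -0.50 (SE 0.27, adjusted p = 0.219) at 100 nm. Ndufa1, Ndufa3 and Ndufa13 passed in the average of both.

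**Figure D3:**
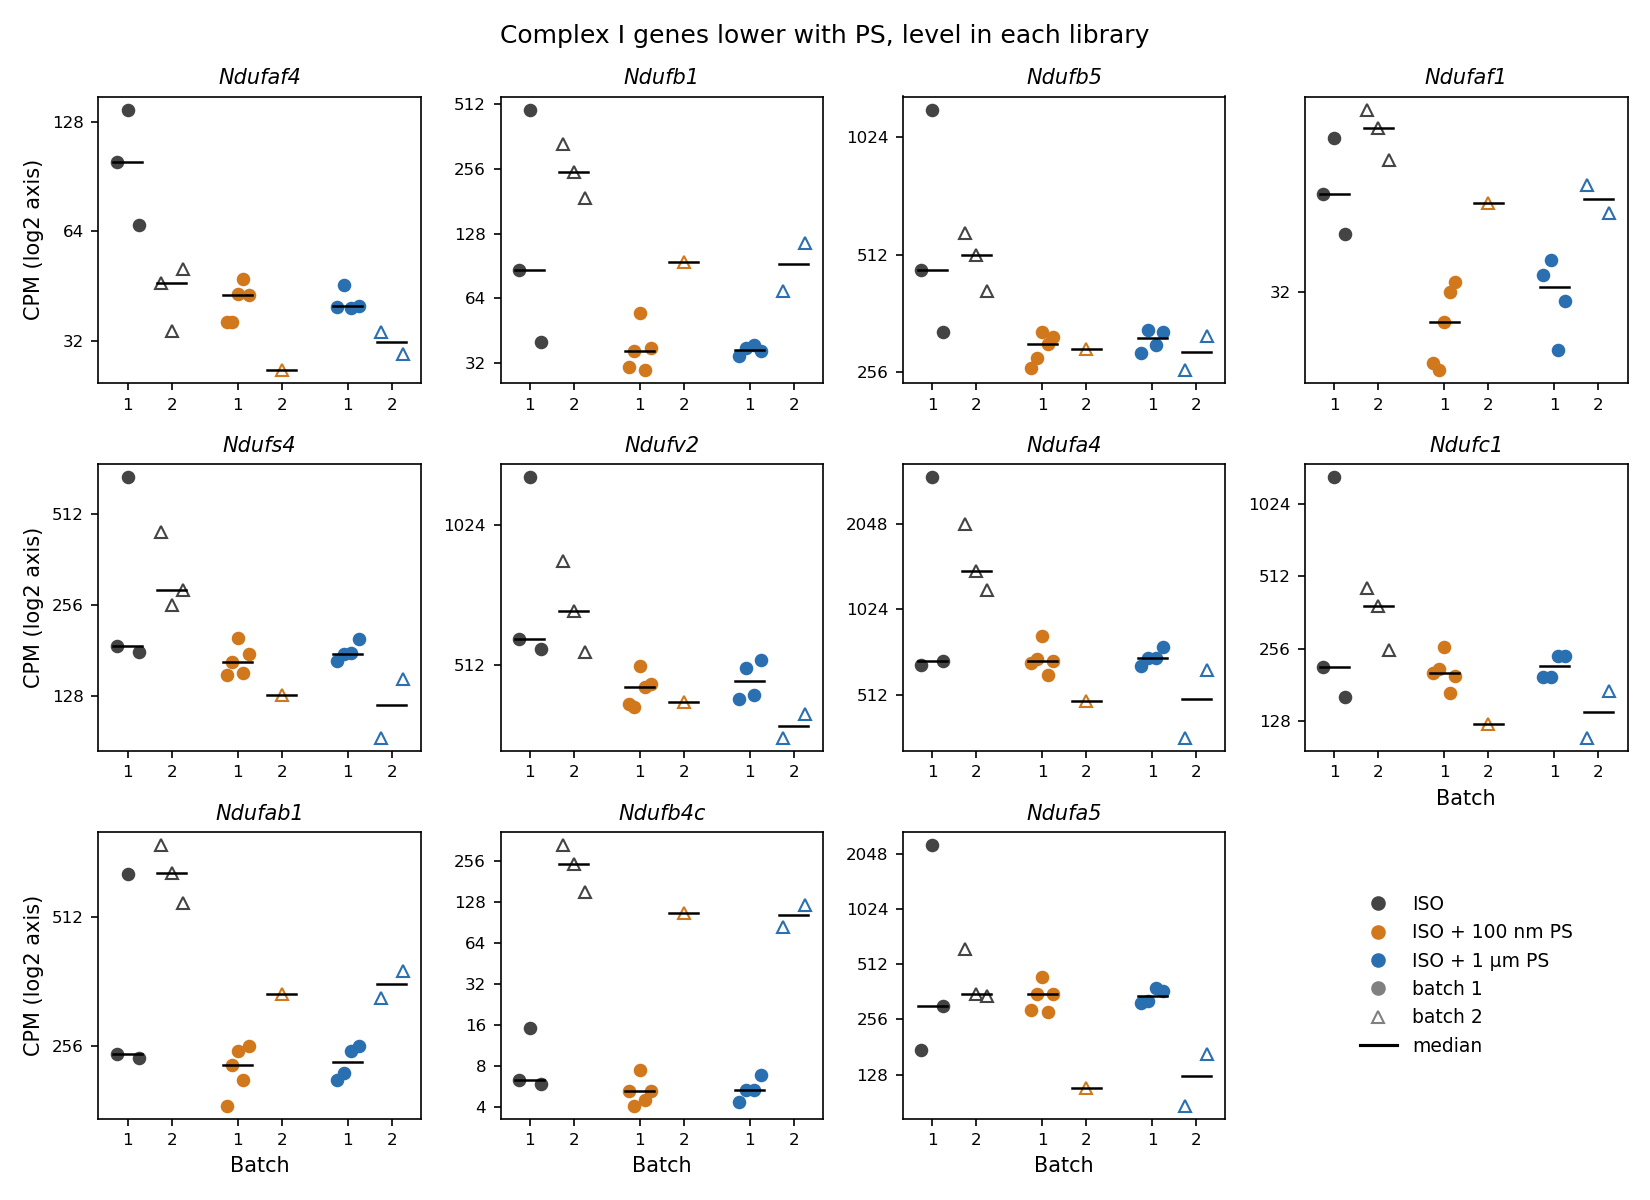
CPM (log2 axis) in each of 18 libraries of the 11 complex I genes that fell with PS at a single size, by group (colour) and batch (filled circles batch 1, open triangles batch 2), with medians as lines. In batch 2 the PS libraries lie below the ISO libraries for all 11 genes, while in batch 1 this holds for Ndufaf4, Ndufaf1 and Ndufv2.

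Of the assembly factors named Ndufaf, 2 of 8 fell at 100 nm and 1 of 8 at 1 µm, with medians of -0.48 and -0.42. Over all genes 5.69% and 4.5% fell. Ndufaf4, which works with Ndufaf3 on the Q module, was at 99.0, 138 and 66.4 CPM in ISO of batch 1 and at 36.0 to 47.3 CPM (median 39.9) in PS there. Batch 2 had it at 46.1, 34.2 and 50.5 CPM in ISO and at 26.7, 33.9 and 29.5 CPM in PS. Every PS library was below every ISO library of its batch, and ISO replicate 1, low for most members, was high for this one. Against ISO, its log2 fold change was -1.07 (SE 0.19, edgeR adjusted p = 0.0093) at 100 nm and -0.95 (SE 0.19, adjusted p = 0.0132) at 1 µm. With ISO replicate 2 left out it was -0.85 (adjusted p = 0.0039) and -0.76 (adjusted p = 0.0053), and with ISO replicates 1 and 2 both left out -0.65 (adjusted p = 0.0276) and -0.58 (adjusted p = 0.0238).

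Ndufaf1 belongs to the assembly complex that builds the membrane arm. It was at 44.0, 52.7 and 38.6 CPM in ISO of batch 1 and at 24.9 to 35.5 CPM (median 31.1) in PS there. Its batch 2 levels were 57.8, 54.5 and 49.1 CPM in ISO and 42.7, 45.2 and 41.3 CPM in PS. The groups did not overlap in either batch. The log2 fold change was -0.54 (SE 0.13, edgeR adjusted p = 0.0214) at 100 nm, and at 1 µm it did not pass (-0.42, SE 0.13, adjusted p = 0.0536). In the direct comparison of the sizes Ndufaf1 was at 0.12 (SE 0.13, adjusted p near 1), so the sizes were not shown to differ.

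The other 6 Ndufaf genes did not pass at either size, and Ndufaf8 and Ndufaf2 passed in the average of both. Ndufaf8, a partner of Ndufaf5, was at -1.35 (SE 0.49, edgeR adjusted p = 0.0845) at 100 nm and ran from 4.47 CPM in ISO replicate 1 to 162 CPM in ISO replicate 2. Ndufaf2, a chaperone of late assembly, was at -0.76 (SE 0.26, adjusted p = 0.0735), Ndufaf3 at -0.42 (SE 0.21) and Ndufaf5, which modifies Ndufs7, at -0.34 (SE 0.17). Ndufaf6 was at -0.26 (SE 0.15), and Ndufaf7, a methyltransferase, was nearest to 0, at -0.05 (SE 0.18, adjusted p = 0.873). At 1 µm these 6 genes were at -1.38, -0.74, -0.36, -0.43, -0.26 and -0.08 in the same order.

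Of 12 assembly factors under other names, 4 fell at 100 nm and 3 at 1 µm, where 5.69% and 4.5% of all genes fell. None of the 12 rose. The counts of those that fell were 2 and 3 without ISO replicate 2, where 9.04% and 8.56% of all genes fell. Tmem126b, which sits in the same assembly complex as Ndufaf1, was at -0.92 (SE 0.15, edgeR adjusted p = 0.0093) and -0.84 (SE 0.14, adjusted p = 0.0113). Tmem70, which also serves ATP synthase assembly, was at -1.08 (SE 0.19, adjusted p = 0.0093) and -0.98 (SE 0.18, adjusted p = 0.0126). Nubpl, which delivers iron-sulfur clusters, was at -0.77 at both (SE 0.22 and 0.21, adjusted p = 0.0358 and 0.0382). Chchd4, an import receptor of the intermembrane space, fell at 100 nm (-0.88, SE 0.26, adjusted p = 0.0405) and did not pass at 1 µm (-0.66, adjusted p = 0.103). Acad9 and Ecsit, further members of the Ndufaf1 complex, were at -0.21 (SE 0.18) and 0.05 (SE 0.16) at 100 nm and did not pass.

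Ndufa4 carries a complex I name but is counted as a subunit of cytochrome c oxidase. It was at 652, 2994 and 676 CPM in ISO of batch 1 and at 601 to 826 CPM (median 684) in PS there, and ISO replicates 1 and 3 lay within the PS range. In batch 2 it was at 2048, 1403 and 1201 CPM in ISO and at 488, 361 and 624.6 CPM in PS. Its log2 difference from ISO was -1.29 (SE 0.33, edgeR adjusted p = 0.0252) at 100 nm and -1.32 (SE 0.32, adjusted p = 0.0244) at 1 µm, and -0.80 and -0.88 without ISO replicate 2 (adjusted p = 0.0889 and 0.0539).

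Ndufa4l2, a paralog of Ndufa4 known as a target of hypoxia signalling, was the member farthest above 0. It was at 8.15, 30.7 and 27.4 CPM in ISO of batch 1 and at 36.5 to 56.6 CPM (median 45.9) in PS there, without overlap. Batch 2 had it at 37.8, 37.7 and 29.0 CPM in ISO and at 42.2, 31.4 and 34.0 CPM in PS, with overlap. Against ISO, its log2 fold change was 0.63 (SE 0.28, edgeR adjusted p = 0.146) at 100 nm and 0.62 (SE 0.27, adjusted p = 0.148) at 1 µm and did not pass. With ISO replicates 1 and 2 both left out it was 0.27 (adjusted p = 0.397) and 0.28 (adjusted p = 0.332). When each library was corrected for transcript length it was 0.79 (adjusted p = 0.0101) and 0.82 (adjusted p = 0.0092).

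Members with near-identical copies are uncertain, since the tables split their reads differently. Ndufb4c was at 4.12 to 15.4 CPM in batch 1 and at 84.4 to 334 CPM in batch 2. It fell at 100 nm (-0.96, SE 0.26, edgeR adjusted p = 0.0328) and at 1 µm (-0.97, SE 0.25, adjusted p = 0.0307), while the parent gene Ndufb4 did not pass at 100 nm (-0.96, SE 0.35, adjusted p = 0.0826) and passed in the average of both (-0.93, SE 0.29, adjusted p = 0.0338). With copies added to their parents, Ndufb4 was at -0.92 (adjusted p = 0.09). Ndufa12, Ndufab1 and Ndufs5 have pseudogene copies that were added to them in the same setting. There Ndufab1 again passed at both sizes, and Ndufa12 and Ndufs5 passed in the average of both. Ndufs6b had 0 counts in every library of batch 2, and in batch 1 it was at 45.1 CPM in ISO replicate 2 against 0.438 to 2.92 CPM in all other libraries. Its log2 fold change at 100 nm was -2.60 (SE 0.85, adjusted p = 0.0685) and 0.77 without ISO replicate 2. In the average of both sizes it was at -2.67 (SE 0.72, edgeR adjusted p = 0.0228), and it did not pass without ISO replicate 2.

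The second question is whether particle size matters. Between 1 µm and 100 nm PS, 0 of 49 members passed by edgeR's test and 0 had an unadjusted p under 0.05, where 0.0% of all genes passed and 49 of them had an unadjusted p under 0.05. DESeq2 and limma voom also called 0 members. The members' log2 differences ran from -0.14 to 0.22 with a median of 0.02. The 95% intervals had a median half-width of 0.63, so differences within a member's interval are not excluded. The widest interval, from -1.79 to 1.51, was that of Ndufs6b, which had no counts in batch 2. The members with the smallest unadjusted p by edgeR's test were Ndufaf1 (0.12), Ndufs1 (0.19) and Ndufa10 (0.13), none of which passed.

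Ndufaf4 and Ndufb1 passed at both sizes whichever single library was left out, with adjusted p values of at most 0.0491. With ISO replicates 1 and 2 both left out, Ndufaf4 passed at both sizes, while Ndufb1 passed at 1 µm and not at 100 nm. At 100 nm the other calls ended as follows. Without 100 nm PS replicate 6 9 calls ended (Ndufb5, Ndufaf1, Ndufs4, Ndufv2, Ndufa4, Ndufc1, Ndufab1, Ndufb4c and Ndufa5), and Ndufb5 passed without any other single library (edgeR adjusted p = 0.0542 without replicate 6). Without 100 nm PS replicate 1 all of these but Ndufb5 ended, and without replicate 2 all but Ndufb5 and Ndufs4. Without ISO replicate 2 the calls of Ndufs4, Ndufa4, Ndufc1, Ndufab1, Ndufb4c and Ndufa5 ended. Ndufab1, Ndufb4c and Ndufa5 were also lost without ISO replicate 4 or without 100 nm PS replicate 4, Ndufab1 and Ndufa5 without 100 nm PS replicate 3, and Ndufb4c and Ndufa5 without replicate 5. The highest edgeR adjusted p over these removals was 0.0544 for Ndufaf1, 0.062 for Ndufv2, 0.0657 for Ndufs4, 0.0889 for Ndufa4, 0.0901 for Ndufab1, 0.0967 for Ndufb4c, 0.139 for Ndufc1 and 0.273 for Ndufa5.

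At 1 µm the calls of Ndufb5, Ndufs4, Ndufv2, Ndufa4, Ndufc1, Ndufab1, Ndufb4c and Ndufa5 ended without 1 µm PS replicate 1 and without replicate 3. Without ISO replicate 4 all of these but Ndufb5 ended. Ndufa4 was also lost without ISO replicate 2 and 1 µm PS replicate 5, Ndufb5 without 1 µm PS replicate 4, and Ndufb4c without 1 µm PS replicates 2, 5 and 6. Ndufc1 was lost without ISO replicate 2 or any 1 µm PS library. Ndufa5 and Ndufab1 were lost without ISO replicates 2 and 6, any 1 µm PS library or 100 nm PS replicates 2, 3 and 6, and Ndufab1 also without 100 nm PS replicates 4 and 5. The highest edgeR adjusted p was 0.0593 for Ndufb5, 0.0551 for Ndufs4, 0.0608 for Ndufv2, 0.0567 for Ndufa4, 0.117 for Ndufc1, 0.0822 for Ndufab1, 0.0708 for Ndufb4c and 0.197 for Ndufa5. With ISO replicates 1 and 2 both left out, the calls of Ndufb5, Ndufc1 and Ndufab1 ended at 1 µm. At 100 nm only the calls of Ndufaf4 and Ndufs4 remained in that setting.

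Levels per transcript length (TPM, length-scaled counts, computed from the counts and the length of 1 principal transcript) set the members beside each other. In the 9 PS libraries of batch 1 the median TPM of the 37 subunits ran from 74.6 to 1404, with a middle value of 584. Ndufb9 (1404), Ndufb8 (1397) and Ndufs7 (1279) were highest. Their ranges over the libraries, 1351 to 1861, 1280.4 to 1819 and 1189 to 1803 TPM, overlapped. Differences between these neighbours within a library were not tested. Ndufb1 (74.6), Ndufab1 (114) and Ndufs4 (183) were lowest, with ranges of 65.1 to 100.0, 97.2 to 152 and 162 to 215.5 TPM. All 3 were among the 7 of 37 subunits that fell, a call made with these same PS libraries. In the 3 PS libraries of batch 2 the order was another one, with Ndufb4 (97.5), Ndufs4 (137), Ndufab1 (175) and Ndufb1 (198) lowest, Ndufb9 (1555) and Ndufb8 (1489) high and Ndufs7 at 813. In batch 1 the assembly factors stood at 18.6 (Ndufaf4) to 49.3 TPM (Ndufaf8), all below the lowest subunit. With the longest transcript instead, Ndufb8 was at 454 rather than 1377 TPM over batch 1, Ndufc1 at 306 rather than 1166 and Ndufb2 at 94.9 rather than 877.

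**Figure D4:**
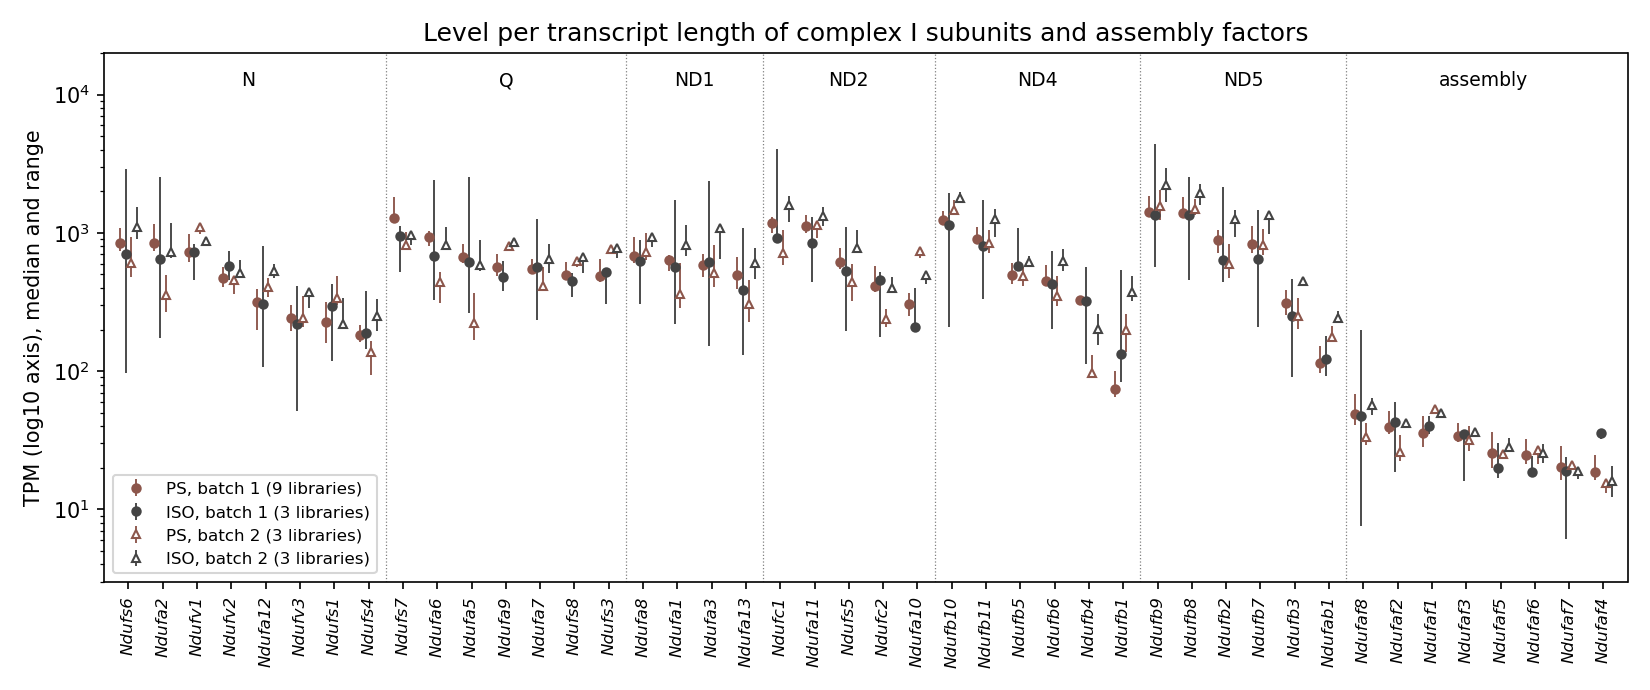
Level per transcript length (TPM, log10 axis; points are medians and bars the range over libraries) of subunits and 8 assembly factors, for PS (brown) and ISO (grey) in batch 1 (circles) and batch 2 (triangles). The PS medians of the assembly factors lie below those of the subunits, and the ISO bars of batch 1 are the longest for most genes.

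Shorter members differed more. The 49 members share their libraries and are not independent points. Over them, the log2 fold change and the transcript length had a Spearman correlation of 0.50 at 100 nm and 0.55 at 1 µm. At 100 nm the 18 members under 700 nucleotides had a median of -1.04 and the 13 members of 1400 or more one of -0.42. Over all genes the medians were -0.79 for 621 short and 0.03 for 12134 long genes. Without ISO replicate 2 the members' correlations were 0.01 and 0.19, and in batch 2 alone 0.63 and 0.62. When each library was corrected for length, 14 members fell and 1 rose at 100 nm and 10 fell and 1 rose at 1 µm, with medians of -0.57 and -0.46, where 14.3% and 11.1% of all genes fell. The deviation of a library from its batch mean was also related to GC content over all genes (Spearman -0.62 to 0.02 in ISO, 0.13 to 0.37 in PS). With GC content corrected, 0 members passed at either size, the members' medians were -1.09 at both, and 2 and 0 of all genes fell (0.0137% and 0.0%).

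**Figure D5:**
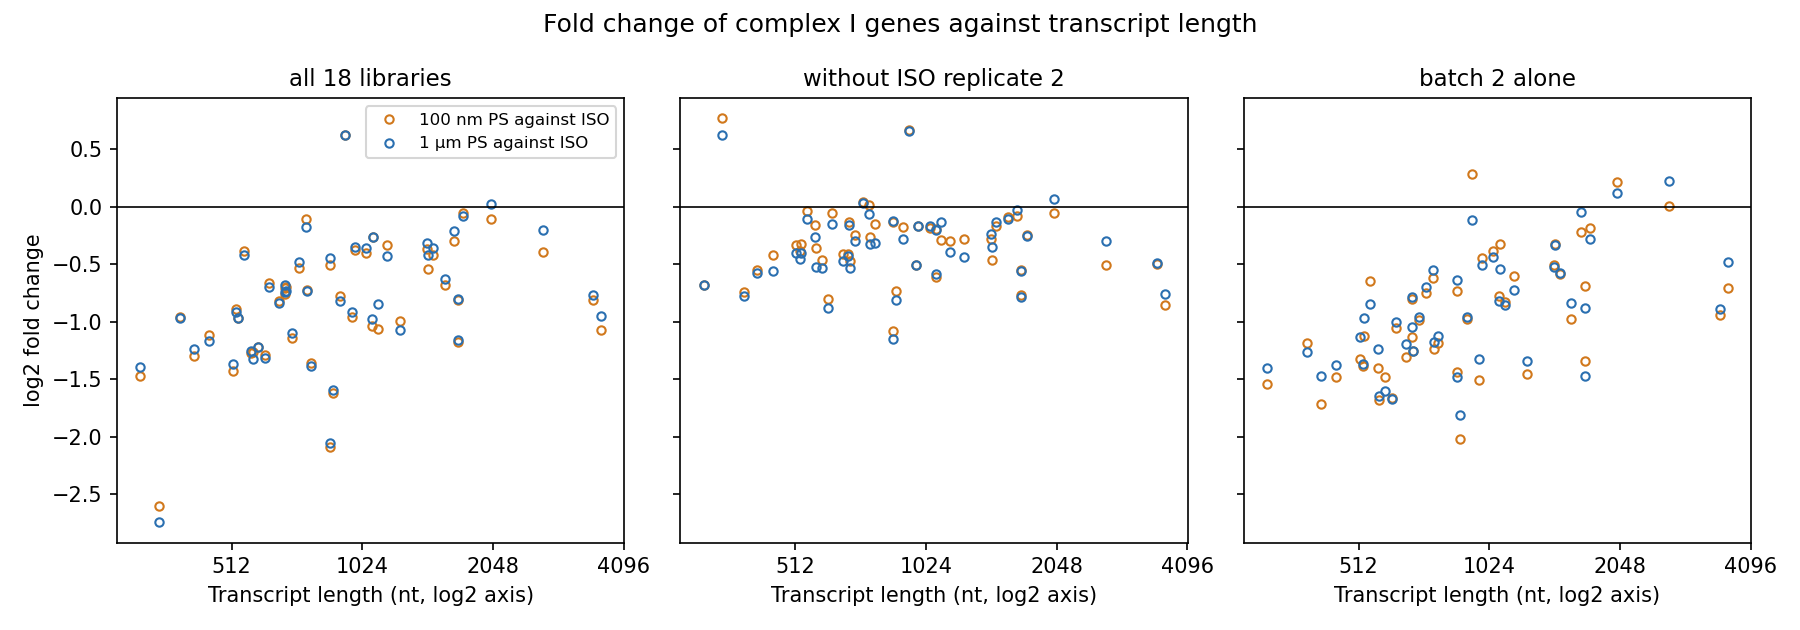
Log2 fold change against ISO (y axis) of complex I genes against transcript length (x axis, nucleotides, log2 scale), for 100 nm (orange) and 1 µm PS (blue), in all 18 libraries, without ISO replicate 2 and in batch 2 alone. The upward slope seen on the left (Spearman 0.50 and 0.55) is absent in the middle panel at 100 nm (0.01) and present in batch 2 (0.63 and 0.62).

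Genes that work beside the nuclear complex I genes were read from the same fit. Of the 7 complex I genes in mitochondrial DNA, mt-Nd3 and mt-Nd1 fell, at -1.43 (SE 0.31, edgeR adjusted p = 0.0156) and -0.82 (SE 0.22, adjusted p = 0.0288) at 100 nm. At 1 µm they fell at -1.63 (SE 0.30, adjusted p = 0.0124) and -0.81 (SE 0.21, adjusted p = 0.0309). When ISO replicate 2 was left out, 4 of the 7 fell at each size, where 9.04% and 8.56% of all genes fell. Without ISO replicate 1 the count was 2 at each size, and without both 1 at each size (2.66% and 4.37% of all genes). The list's medians were -0.66 and -0.74 with all libraries and -0.28 and -0.47 without ISO replicate 1. With GC content and length corrected they were -0.01 and 0.16. The 7 mitochondrially encoded genes have nuclear pseudogene copies and are uncertain. Of 37 nuclear genes of complexes III to V, 11 fell at 100 nm and 9 at 1 µm, with medians of -0.80 and -0.83, where 5.69% and 4.5% of all genes fell. Of these genes 1 and 2 fell without ISO replicate 2, with medians of -0.33 and -0.36. Among them Atp5mpl, a small ATP synthase subunit, was at -1.94 (SE 0.44, adjusted p = 0.017) and Cox7c, of cytochrome c oxidase, at -1.39 (SE 0.37, adjusted p = 0.0275) at 100 nm. Of 8 complex II genes 1 fell at each size, the assembly factor Sdhaf3 (-1.20, SE 0.26, adjusted p = 0.0147, and -1.24, SE 0.25, adjusted p = 0.0137), with list medians of -0.40 and -0.37.

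Of 12 regulators of mitochondrial gene expression, Gabpa, the DNA-binding subunit of GABP, fell at both sizes (-0.50, SE 0.15, edgeR adjusted p = 0.0407 at 100 nm, and -0.61, SE 0.14, adjusted p = 0.0213 at 1 µm). Gabpa alone of the 12 fell at each size, and none rose, where 5.69% and 4.5% of all genes fell. The list's medians were -0.39 and -0.07. Of its genes 4 and 2 fell without ISO replicate 2, where 9.04% and 8.56% of all genes fell. Without ISO replicate 1 the counts were 0 and 1 (8.81% and 7.96% of all genes), so the Gabpa call at 100 nm ended there. With both left out they were 1 and 2 (2.66% and 4.37% of all genes). Ppargc1a, the coactivator of mitochondrial biogenesis, was at -0.65 (SE 0.24, adjusted p = 0.0865) and -0.58 (SE 0.23, adjusted p = 0.124) and did not pass at a single size. Gabpa and Ppargc1a fell in the average of both, where 10.9% of all genes fell.

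Markers of several cell types moved with the groups. Of 14 cardiac muscle cell markers 1 fell at each size, Pln, the calcium pump inhibitor, with medians of -0.33 and -0.25. Their summed level was 46561 to 112441 CPM in ISO and 55273 to 75727 CPM in PS of batch 1, and 110093 to 129304 and 109428 to 146024 CPM in batch 2, overlapping in both. Of 10 fibroblast markers 6 rose at 100 nm and 1 at 1 µm, with summed levels of 903 to 2319 CPM in ISO, 1725 to 3936 at 100 nm and 1618 to 3590 at 1 µm. Of 10 endothelial markers 3 and 1 rose, at 1025 to 2443, 2095 to 3232 and 2199 to 3200 CPM. Of 10 smooth muscle and pericyte markers 4 rose at each size, at 733 to 2238, 1613 to 2212 and 1586 to 2319 CPM. Apart from cardiac muscle, summed levels are over both batches together. Of 5 tested skeletal muscle markers 2 fell at 100 nm and 0 at 1 µm, and of 4 tested atrial markers 2 rose at 100 nm and 0 at 1 µm. Over all genes 5.69% and 4.5% fell and 3.88% and 2.89% rose. Without ISO replicates 1 and 2, 1 and 0 fibroblast, 1 and 1 endothelial and 1 and 2 smooth muscle and pericyte markers rose. The shares of all genes rising were then 1.37% and 2.1%. In batch 2 alone 0 of these markers rose at either size, where 0.0348% and 0.0418% of all genes rose. The skeletal muscle calls ended without ISO replicate 2, and the atrial calls without ISO replicate 1 or 2. None of the leukocyte, mesothelial, fat, Schwann cell and neuron or red blood cell markers passed at a single size. These lists hold 9, 7, 3, 5 and 5 tested markers in that order. In the average of both, S100a8, Hbb-bs and Hbb-bt fell and Krt18 and Sox10 rose, where 10.9% of all genes fell and 6.8% rose. No marker in these lists was at 0 in all libraries, and their part in the complex I values was not tested.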

How the data were processed

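Poly(A)+ RNA of 18 mouse hearts was sequenced as paired-end reads by 2 providers, per the labels' protocols. The authors deposited 1 gene table per batch. In batch 1 the authors' values are raw counts per gene, whole numbers without normalization. In batch 2 the authors' values are estimated counts per gene without normalization, of which 19.6% of those above 0 were not whole, and they were rounded here. Tools listed by the submitters' processing notes are DESeq2, featureCounts 1.5.0-p3, StringTie 1.3.3b, HISAT2 2.0.5 and fastp, with the build GRCm39 (mm39). Which counter made which table, and its strand and multimapping settings, are not given in the sources used here.

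The tables (46548 and 57010 entries) were joined on 35586 genes, 22173 by paired identifiers and 13413 by symbol. Joined genes held 98.9% to 99.5% of the counts in batch 1, 85.2% to 87.4% in ISO and 93.1% to 95.8% in PS of batch 2. In batch 1, 215 rows without a gene name, with 0.16% to 0.388% of counts, were left out. Totals per library (14032257 to 22600570) limit the precision of low genes.

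Genes passing edgeR's filter (minimum count 10) were fitted with edgeR 4.0.16 in R 4.3.3 (TMM factors, robust quasi-likelihood, groups and batch as terms, all 18 libraries, 14 residual degrees of freedom). P-values were Benjamini-Hochberg adjusted over all 14623 genes, with a threshold of 0.05. Log2 CPM used a prior count of 2. DESeq2 1.42.0 and limma 3.58.1 were alternatives, with other scalings, filters, corrections for GC content or transcript length, batches alone and single libraries left out. Transcript lengths and GC content came from RefSeq-paired transcripts, and promoters from RefSeq (GRCm38.p6), a build other than that of the files. The scripts were tested on simulated data.

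Genes named with values were those that passed at either size, core subunits, the Ndufaf genes, Ndufa4, Ndufa4l2 and Ndufab1, the extremes of each module at 100 nm, and the 3 smallest p values between sizes. Ndufb4, Acad9, Ecsit, Atp5mpl and Cox7c were added after their values were seen. Values of 1 gene are in the counts and medians but are not reported here by name or drawn. The members and gene lists were chosen with earlier results of these data known.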

Additional observations from a re-analysis of the deposited data

Results flagged for a closer look

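Of 75 groups of libraries examined on the log2 CPM scale, 5 held a library far from the others. Chance gives about 1 in 20 for libraries of 1 batch, but these groups mix both batches, so that rate does not apply. Ndufa4 was at 8.50 in 1 µm PS replicate 5, with the other 5 libraries of the group at 9.29 to 9.56. Ndufa5 was at 6.75 in 100 nm PS replicate 6, with the others at 8.13 to 8.78. Ndufb4c was at 6.74 in 100 nm PS replicate 6, with the others at 2.08 to 2.93. Both of these libraries belong to batch 2, and 100 nm PS replicate 6 is the only one of its group there. In ISO, Ndufa4l2 was at 3.05 in replicate 1 with the others at 4.78 to 5.25, and Ndufaf7 was at 3.48 in replicate 2 with the others at 4.48 to 4.72. Ndufaf7 is thus a member that was low in the ISO library where 46 of 49 members lay above the PS range.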

How the results depend on the processing

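The members that passed at 100 nm, at 1 µm and in the mean of both sizes numbered 11, 10 and 27, all lower. They numbered 26, 27 and 35 with DESeq2 (10.3%, 9.36% and 14.6% of all genes lower, and 11.1% higher in the mean). With limma voom they numbered 20, 21 and 23 (6.09%, 6.05% and 7.29% of all genes lower). At an adjusted p under 0.1 they numbered 24, 25 and 34 (10.7%, 9.3% and 16.1%). Without a batch term they were 0, 0 and 11 (0, 0 and 3.08% of all genes). In batch 1 alone they were 4, 2 and 7 (4.51%, 2.27% and 8.12% of all genes lower, and 4.74% higher in the mean). In batch 2 alone they were 0, 0 and 15 of 48 tested (0.0139%, 0.0348% and 1.59% of all genes lower). With GC content corrected they were 0, 0 and 38, where 11.2% of all genes were lower in the mean. With GC content and length corrected they were 1, 0 and 23 (0.198%, 0 and 8.73%), and with only the groups compared 2 and 0 at the single sizes (1.57% and 0). Without the low-count filter the count at 1 µm was 6 (1.21%). Members passing in these settings were lower, except that Ndufa4l2 was higher in the mean of both with DESeq2, in batch 1 alone and with GC content and length corrected, and in all 3 comparisons with length corrected, and that 1 member was higher in the mean at an adjusted p under 0.1. With ISO replicates 1 and 2 both left out the count at 100 nm was 4. Leaving out each library in turn gave 2 to 38 at 100 nm, 2 to 35 at 1 µm and 9 to 40 in the mean of both. In the size comparison the count was 0 in every setting run. With the replicate number as a block the counts were 0, 0 and 2 (0, 0 and 1.7% of all genes lower). Libraries with the same number did not deviate together: 3 of 18 pairs had a correlation over 0.1 (range -0.44 to 0.23), and 0 of 18 libraries correlated best with their own number. The causes of these changes were not tested. The corrections for length, for length with GC content, and the addition of copies were chosen after seeing the data. The alternative that takes lengths from the deposited tables was not run, since neither table has a length column.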
